A study of Mus musculus with 14 samples.

Results

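Transformed mouse embryonic fibroblasts in which mouse TRF1 was replaced by naked mole rat TRF1 carrying both the GLAD and the TIN substitutions were compared, at atmospheric oxygen, with the same kind of cells carrying the GLAD substitutions alone. The double mutant protein has Glu69Lys, Val70Ala, Ala75Thr and Ala105Thr, and the GLAD mutant has the first 3 of these, so the contrast adds Ala105Thr, the TIN substitution, to a GLAD background. The comparison uses 4 of the 14 libraries of the series, A and B of each mutant, taken by their labels. It covers the 16157 of 52636 genes that reached 1 CPM (reads per 1e6 counted reads) in 2 or more libraries. The other libraries, used here for the spread and for side comparisons, are the double mutant, GLAD and TIN groups at 1% oxygen and the TIN and wild-type groups at atmospheric oxygen, with 2 libraries each. All groups share the transformed fibroblast background and, by their labels, the exchange of TRF1, though the wild-type column names carry the word mouse. The sources used here do not say whether a mutant is 1 clone or a pool, so cell line and substitution cannot be told apart. They also do not say that A and B were separate cultures, so the p-values reflect only how far A and B lie apart, and that distance may be technical.

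TRF1 is a subunit of shelterin, the protein complex that coats the double-stranded repeats at chromosome ends. It binds the telomeric repeat as a dimer, helps replication forks pass through telomeres, and contacts TIN2, which bridges TRF1 to the other shelterin subunits. The series' title names glycolysis and the replication of telomeres when oxygen is scarce, and the contrast described here asks what the added Ala105Thr goes with in normoxic cells.

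Levels below are CPM scaled between libraries, and a log2 fold change is double mutant over GLAD mutant on the log2(scaled CPM + 0.5) scale, with its standard error after ±. A gene is called, and said to have risen or fallen in the double mutant, when limma's Benjamini-Hochberg adjusted p was under 0.05. Estimated depth was 11923550 to 15031662 reads per library over the series, so that 3 reads, the limit that a count of 0 allows, correspond to 0.2 to 0.252 CPM. This depth is an estimate: the deposited values lie on steps of about 0.05 CPM, and whole reads scaled onto those steps fitted 99.68% to 99.76% of the low values in the 4 libraries, where other scalings fitted about 67.1%. Read numbers and limits hold only as far as that estimate does, and they cover counting error only. A and B differed by a median of 0.0704 (log2) in the double mutant and 0.0712 in GLAD, over 10383 genes. In the other groups this median ran from 0.0563 in hypoxic TIN to 0.2 in wild type. The wild-type pair, the widest apart, also enters the estimate of the spread behind every p-value. The cells carried fibroblast transcripts: the intermediate filament gene Vim had a level of 1701 and 1863 CPM in both double mutant libraries, against 1756 and 1829.6 CPM in both GLAD libraries. Summed over the fibroblast markers, the level was 10400 to 11600 CPM in the double mutant and 10410 to 10840 CPM in GLAD. These sums held opposite changes, as 3 of 14 tested markers rose and 4 fell. Dcn (1.74), Col3a1 (1.20) and Pdgfra (1.19) rose, and Col1a2 (-1.32) was among the falls. The fibroblast surface markers Thy1 and Fap were below the filter in these cells. Of the markers of other cell types, 2 of 13 epithelial, 4 of 12 myeloid and lymphoid, 4 of 12 muscle and 5 of 10 endothelial genes passed the filter, and Cdh1, Epcam, Ptprc, Myod1, Pecam1 and Cdh5 did not. The summed neural markers were at 293.8 and 312 CPM in double mutant libraries A and B, against 497.4 and 485.5 CPM in the GLAD libraries, with 9 of 11 genes past the filter. That difference lay mostly in the microtubule protein gene Map2, at 169 and 175 CPM in the double mutant, against 392 and 381 CPM in GLAD (-1.16), while the intermediate filament gene Nes was higher, at 74.8 and 85.2 CPM in the double mutant, against 30.5 and 29.7 CPM in GLAD (1.39). Over the 9 neural genes 4 fell and 2 rose, with Stmn2 (-1.40) and S100b (-1.31) also among the falls. The summed endothelial markers were at 12.85 and 12.49 CPM in the double mutant, against 22.82 and 21.92 CPM in GLAD. That difference lay mostly in Tek, at 1.28 and 0.953 CPM in the double mutant, against 12.8 and 11.6 CPM in GLAD, while the growth factor receptor gene Flt1 was higher, at 8.24 and 8.68 CPM in the double mutant, against 3.65 and 3.28 CPM in GLAD (1.18). Over the 5 endothelial genes 3 fell and 1 rose, the other falls being Kdr (-1.15) and Erg (-1.15). The summed adipocyte and chondrocyte markers, 8 of 13 past the filter, were at 94.1 and 107.4 CPM in the double mutant, against 137 and 144.8 CPM in GLAD. The part of these other cell types in the results below was not tested. In bulk RNA, fewer cells of a type and less RNA per cell cannot be told apart, for these and all later differences.

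Terf1 (ENSMUSG00000025925, GRCm38 chromosome 1, 15805646 to 15844052), which encodes TRF1, stood at 128 and 137 CPM in double mutant libraries A and B, against 148 and 148 CPM in the GLAD libraries. Both double mutant libraries were below both GLAD libraries, but the log2 fold change of -0.16 ± 0.08 was not called (limma adjusted p = 0.14), though it was called when either or both wild-type libraries, or all libraries outside the contrast, were left out of the estimate of the spread. A count per gene cannot separate reads of the introduced naked mole rat sequence from reads of the mouse gene.

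Adding the TIN substitution went with broad differences. Of the 16157 genes, 5760 (35.7%) were called, 3058 higher (18.9%) and 2702 lower (16.7%) in the double mutant. At least 2-fold differences were fewer: 498 called genes were at least 2-fold higher (3.08%) and 571 at least 2-fold lower (3.53%). The median log2 fold change over all genes was 0.01. The 2 double mutant values did not overlap the 2 GLAD values for 72.6% of genes. Leaving out GLAD library A reduced the calls to 3809, with 1825 higher, and leaving out double mutant library B left 2029 higher.

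**Figure D1:**
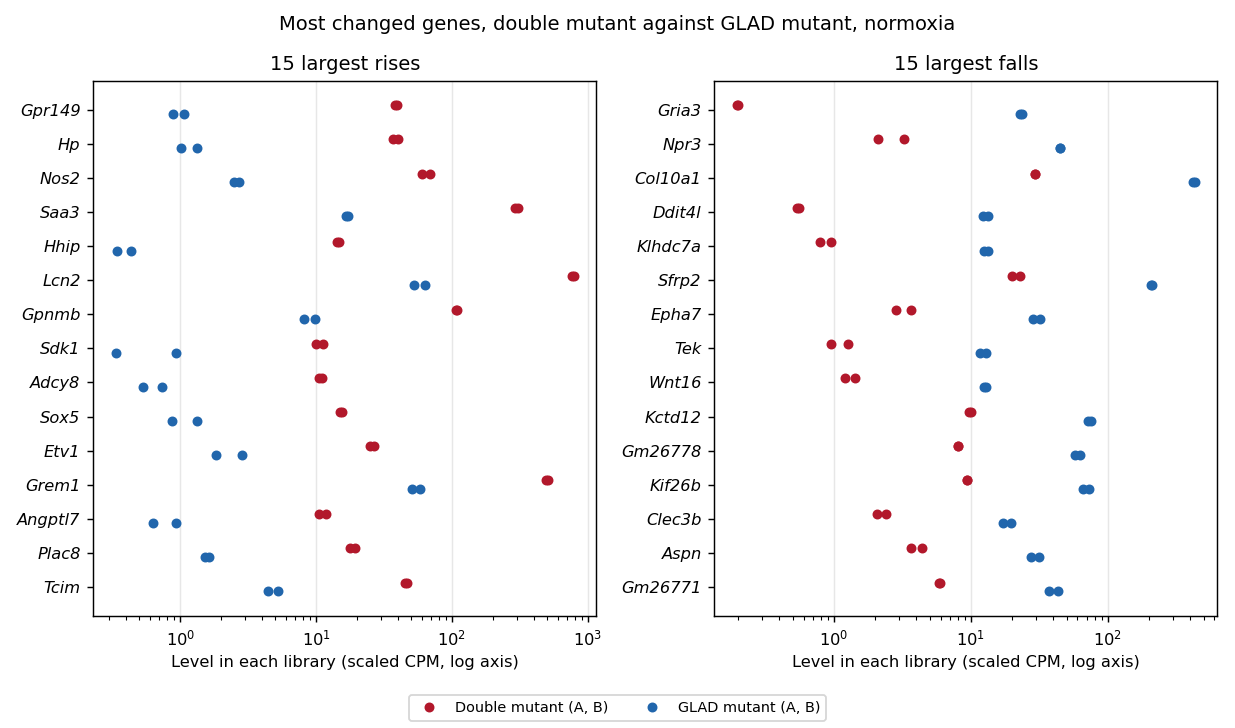
Scaled CPM (log axis) of the 15 genes with the largest rises and the 15 with the largest falls in the double mutant among called genes with a mean of at least 5 CPM over the 4 libraries. Each point is 1 library, double mutant in red and GLAD in blue, and the groups of every gene shown are separated by more than the gap between their A and B libraries.

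The genes that rose most included several for secreted and signalling proteins. Gpr149, an orphan G protein-coupled receptor gene (ENSMUSG00000043441, chromosome 3, 62529077 to 62605140, minus strand), stood at 39.7 and 38.3 CPM in double mutant libraries A and B, against 1.06 and 0.881 CPM in the GLAD libraries. It was low in both GLAD libraries and well above them in both double mutant libraries, a log2 fold change of 4.75 ± 0.16 (limma adjusted p = 1.36e-13). Hp, which encodes the haemoglobin-binding plasma protein haptoglobin, had 40.4 and 36.7 CPM in the double mutant and 1.01 and 1.32 CPM in GLAD (4.56 ± 0.21, limma adjusted p = 1.35e-11). Nos2, the inducible nitric oxide synthase gene, had 59.9 and 69 CPM in the double mutant and 2.5 and 2.69 CPM in GLAD (4.39 ± 0.16, limma adjusted p = 3.22e-13). Both genes were high in the 2 double mutant libraries and low in the 2 GLAD libraries. Hhip, whose product binds and restrains hedgehog ligands, was at 14.2 and 14.7 CPM in the double mutant and 0.433 and 0.343 CPM in GLAD, the GLAD values lying close to the estimated 3 read limit. Grem1, a secreted antagonist of bone morphogenetic proteins (BMPs), was already abundant in GLAD and reached 511 and 496 CPM in the double mutant, against 58.1 and 50.6 CPM in GLAD (3.20 ± 0.10, limma adjusted p = 9.4e-14). The lysosomal glycoprotein gene Gpnmb (3.52), the adhesion gene Sdk1 (3.34), the adenylyl cyclase gene Adcy8 (3.33) and the transcription factor genes Sox5 (3.32) and Etv1 (3.24) rose by similar amounts, as did Angptl7 (3.20), Plac8 (3.19) and Tcim (3.13).

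The genes that fell most included receptor and matrix genes and a secreted Wnt modulator. Gria3, a subunit of the AMPA glutamate receptor (chromosome X, 41400854 to 41678601), had 0.196 and 0.201 CPM in the double mutant libraries, against 23.5 and 22.8 CPM in the GLAD libraries. At the estimated depth the double mutant values correspond to about 5 reads over both libraries, against about 713 in GLAD. On those estimated reads the ratio was 120-fold lower in the double mutant, with a 95% counting interval of 51.1-fold to 370.0-fold that does not include the error of the depth estimate. The fitted log2 fold change of -5.08 ± 0.20 moves with the pseudocount, from -3.52 with 2 CPM added to -6.28 with 0.1 CPM added. Col10a1, the collagen X chain known from hypertrophic cartilage, was at 29.5 and 29.3 CPM in the double mutant, against 418 and 429.8 CPM in GLAD (-3.83 ± 0.10, limma adjusted p = 8.02e-15). Sfrp2, a secreted Wnt modulator, was at 19.9 and 22.7 CPM in the double mutant and 205 and 211 CPM in GLAD (-3.26 ± 0.10, limma adjusted p = 1.8e-14). For both genes the double mutant libraries agreed closely with each other and lay about an order of magnitude below the GLAD libraries. Npr3, the clearance receptor for natriuretic peptides, was at 3.24 and 2.11 CPM in the double mutant and 44.6 and 44.8 CPM in GLAD. The angiopoietin receptor gene Tek (-2.98), the ephrin receptor gene Epha7 (-3.03), the Wnt ligand gene Wnt16 (-2.86) and the small leucine-rich proteoglycan gene Aspn (-2.73) also fell. So did Ddit4l (-3.66), Klhdc7a (-3.29), Kif26b (-2.81) and Clec3b (-2.79). The long noncoding gene Gm26778 (-2.83) lies on the opposite strand within the Kctd12 locus (-2.84), and Gm26771 (-2.66) overlaps the end of Sfrp2 on the opposite strand. The strand setting of the counting is not given in the sources used here, so the reads of each pair cannot be told apart.

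Genes of the acute-phase response and complement, a liver-type defence programme that fibroblasts also express when exposed to inflammatory cytokines, were mostly higher. Of 13 tested members 11 rose and 1 fell, where 18.9% of all genes rose and 16.7% fell, and their median log2 fold change was 1.25 beside 0.01 over all genes. Saa3, a serum amyloid A protein, had 289.8 and 305 CPM in the double mutant, against 16.5 and 17.3 CPM in GLAD (4.10 ± 0.16, limma adjusted p = 9.32e-13). Lcn2, which sequesters bacterial iron carriers, had 760.1 and 787 CPM in the double mutant, against 52.8 and 62.9 CPM in GLAD (3.74 ± 0.10, limma adjusted p = 9.52e-15). In both cases the 2 double mutant libraries lay far above the 2 GLAD libraries, with no overlap. The protease inhibitor gene Serpina3n rose by 2.09 ± 0.17, and the member that fell was Ptx3, a long pentraxin (-1.06, chosen after its value was seen). Among cytokines and chemokines 11 of 22 rose and 4 fell, with a median of 0.51. Tnfsf11, the osteoclast-inducing cytokine RANKL, was at 33.4 and 33.7 CPM in the double mutant, against 3.89 and 3.72 CPM in GLAD (2.98 ± 0.19). The alarmin gene Il33 (2.60), the chemokine gene Ccl5 (1.89) and the cytokine gene Il11 (1.72) rose too. The falls, named after their values were seen, were Cxcl12 (-1.16), Cxcl5 (-1.16), Il1rn (-1.08) and Csf1 (-0.50). Il1a, Il1b and Tnf were below the filter.

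**Figure D2:**
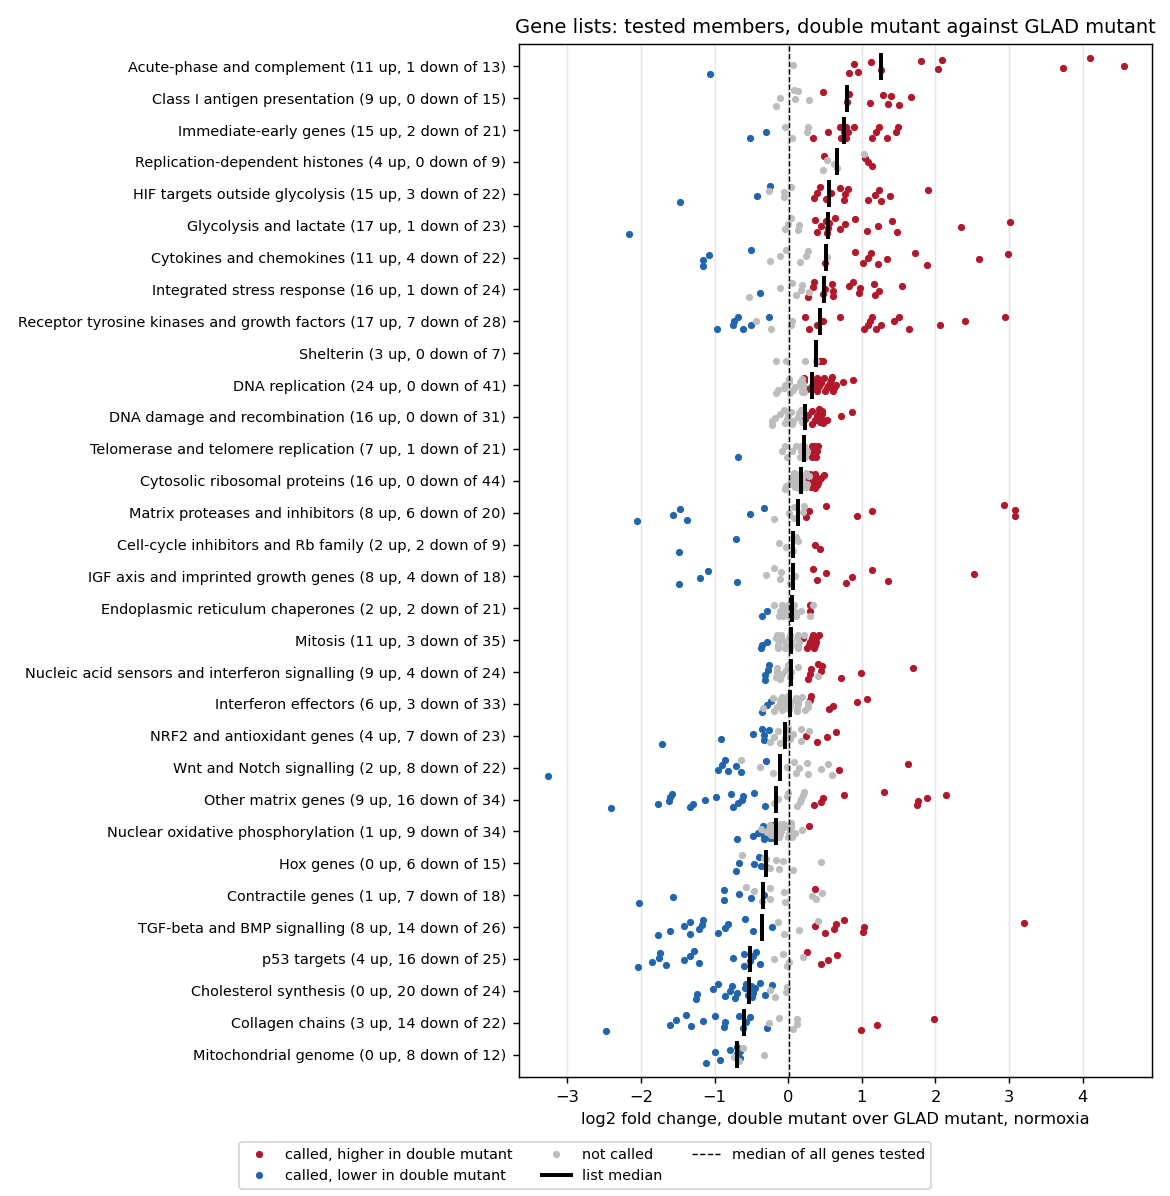
Log2 fold change (double mutant over GLAD, normoxia) of every tested member of each gene list other than the cell type markers and the sex-linked genes, with a point per gene, called genes in colour and the list median as a black bar. Of the lists plotted, acute-phase genes have the highest median (1.25) and the mitochondrial genome the lowest (-0.69), and the dashed line is the median of all genes tested.

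Class I antigen presentation, the display of cell-internal peptides on the cell surface, was mostly higher. Of the interferon effector genes 27.3% were called, beside 35.7% of all genes. Of 15 class I pathway genes 9 rose and 0 fell, with a median of 0.80. The classical heavy chain gene H2-K1 was at 1204 and 1294 CPM in the double mutant, against 449 and 496 CPM in GLAD (1.40 ± 0.09, limma adjusted p = 4.41e-10). H2-D1 was at 1546 and 1637 CPM in the double mutant and 591 and 649 CPM in GLAD (1.36 ± 0.08). The heavy chain genes are near-identical in places, so the split of reads between them is uncertain. The nonclassical chain gene H2-T23 (1.66 ± 0.14) and Nlrc5, the transactivator of class I genes (1.51 ± 0.13), rose alongside. Of 33 interferon effector genes, such as the Ifit and Oas families, 6 rose and 3 fell, with a median of 0.02, and their summed level was 8686 and 8903 CPM in the double mutant libraries, against 8539 and 8598 CPM in the GLAD libraries. The effectors that rose most were Oasl1 (1.07) and Parp14 (0.94). Among nucleic acid sensors and interferon signalling genes 9 of 24 rose and 4 fell. They included the Z-form nucleic acid sensor gene Zbp1, at 155 and 154 CPM in the double mutant and 45.9 and 48.9 CPM in GLAD (1.70 ± 0.15), and Tmem173, which encodes STING (0.99 ± 0.11). The promoter window of H2-T23 shows the kind of interferon-stimulated response element (ISRE) letters searched, GAAANNGAAA on either strand. Such letters occurred in 3.05% of 10922 promoter windows of tested genes, in 5.99% of 334 windows of genes at least 2-fold higher and in 1.85% of 378 windows of genes at least 2-fold lower. They occurred in 4 of 13 class I windows and 13 of 24 interferon effector windows. The RefSeq window (GRCm38.p6, chr17:36032652-36032951, minus strand) is shown with the match in capitals. It begins 124 bases before this RefSeq start, which is 154 bases from the GENCODE gene start.

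H2-T23: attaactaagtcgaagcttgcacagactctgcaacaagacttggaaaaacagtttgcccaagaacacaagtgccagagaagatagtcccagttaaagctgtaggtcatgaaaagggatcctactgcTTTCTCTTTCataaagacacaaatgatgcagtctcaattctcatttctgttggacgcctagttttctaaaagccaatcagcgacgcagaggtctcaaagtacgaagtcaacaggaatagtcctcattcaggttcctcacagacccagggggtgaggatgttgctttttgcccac

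Extracellular matrix genes moved in both directions, with proteases among the largest rises and collagen chains mostly lower. The stromelysin gene Mmp3, whose product cuts many matrix proteins, was at 827 and 847 CPM in the double mutant, against 98.8 and 98.1 CPM in GLAD (3.08 ± 0.09, limma adjusted p = 9.84e-15). The collagenase gene Mmp13 was at 105 and 104 CPM in the double mutant, against 11.1 and 12.7 CPM in GLAD (3.08 ± 0.13, limma adjusted p = 3.91e-12). Mmp10, a second stromelysin gene, was at 7.7 and 8.88 CPM in the double mutant, against 0.721 and 0.588 CPM in GLAD (2.93 ± 0.27, limma adjusted p = 8.89e-08). Each of the 3 genes, which lie close together on chromosome 9, was low in both GLAD libraries and several-fold higher in both double mutant libraries. Over the list, 8 of 20 proteases and inhibitors rose and 6 fell, with 5 rises when either GLAD library was left out. Proximal promoters of stromelysins and collagenases are known to bind AP-1, the dimer of Fos and Jun proteins, at the letters TGANTCA. These letters were in 4.88% of all 10922 windows, in 7.49% of those at least 2-fold higher and in 7.41% of those at least 2-fold lower, and in 4 of 13 matrix protease windows. The windows of the 3 genes are shown with the match in capitals (RefSeq, GRCm38.p6, plus strand), which stands 46 bases before the start in Mmp3 (chr9:7445572-7445871), 63 in Mmp10 (chr9:7502092-7502391) and 35 in Mmp13 (chr9:7272264-7272563).

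Mmp3: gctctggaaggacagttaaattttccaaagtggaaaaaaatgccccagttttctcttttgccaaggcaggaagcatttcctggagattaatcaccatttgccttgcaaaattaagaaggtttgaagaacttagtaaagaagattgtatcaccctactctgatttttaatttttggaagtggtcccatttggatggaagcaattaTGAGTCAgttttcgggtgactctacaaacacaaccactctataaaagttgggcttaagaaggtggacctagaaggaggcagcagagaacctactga

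Mmp10: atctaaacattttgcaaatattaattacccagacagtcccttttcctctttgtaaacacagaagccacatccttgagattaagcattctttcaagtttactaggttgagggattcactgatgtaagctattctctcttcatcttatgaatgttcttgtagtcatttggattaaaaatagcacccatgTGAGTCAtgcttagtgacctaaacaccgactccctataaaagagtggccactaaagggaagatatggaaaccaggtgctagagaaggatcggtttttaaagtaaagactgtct

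Mmp13: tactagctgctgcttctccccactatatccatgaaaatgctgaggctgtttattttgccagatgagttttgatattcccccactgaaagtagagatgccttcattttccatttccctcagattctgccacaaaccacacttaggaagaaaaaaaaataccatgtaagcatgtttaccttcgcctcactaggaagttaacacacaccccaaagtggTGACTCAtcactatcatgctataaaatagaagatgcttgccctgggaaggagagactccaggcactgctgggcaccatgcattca

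Of 22 collagen chain genes 14 fell and 3 rose, with a median of -0.60. The type I chain gene Col1a2 was at 603 and 636 CPM in the double mutant, against 1510.4 and 1582 CPM in GLAD (-1.32 ± 0.08, limma adjusted p = 3.75e-10). Col1a1, the other type I chain gene, named after its value was seen, was at 1573 and 1803 CPM in the double mutant, against 2336 and 2507 CPM in GLAD (-0.52 ± 0.11). The fibrillar chain gene Col11a1 fell by 2.47 on the log2 scale and Col12a1, a fibril-associated chain gene, by 1.52. The rises were the basement membrane chain gene Col18a1, at 106 and 103 CPM in the double mutant and 24.5 and 27.7 CPM in GLAD (1.98 ± 0.11), the type III chain gene Col3a1 (1.20 ± 0.08) and, named after its value was seen, the beaded-filament chain gene Col6a3 (0.99). Among other matrix genes 9 of 34 rose and 16 fell. Spp1, the secreted phosphoprotein osteopontin, was at 995 and 1073 CPM in the double mutant, against 242 and 227 CPM in GLAD (2.14 ± 0.14). The proteoglycan gene Dcn was at 1303 and 1339 CPM in the double mutant, against 388 and 399.9 CPM in GLAD (1.74 ± 0.07), whereas the related proteoglycan gene Ogn was at 6.53 and 5.02 CPM in the double mutant, against 36.3 and 28.9 CPM in GLAD (-2.40 ± 0.18). Thbs2 (1.89), an adhesive glycoprotein gene, and Mgp (1.77), an inhibitor of calcification, rose. Named after their values were seen, the elastin gene Eln (-1.76) and the matricellular genes Ccn1 (-1.58) and Ccn2 (-1.61) fell.

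Of 18 contractile genes, which mark myofibroblasts, 7 fell, 1 rose and 10 were not called. The share called was 44.4%, beside 35.7% of all genes. Acta2, smooth muscle actin, was at 53.1 and 59.2 CPM in the double mutant, against 164 and 169.6 CPM in GLAD (-1.56 ± 0.13, limma adjusted p = 1.78e-08). Tagln, an actin-binding protein gene of smooth muscle, was at 14.6 and 18.5 CPM in the double mutant and 68.8 and 67.6 CPM in GLAD (-2.02 ± 0.12, limma adjusted p = 4.51e-10). All GLAD values were well above all double mutant values for both genes. The actin-filament genes Tpm1 (-0.87) and Cald1 (-0.87) were among the falls. Of 26 genes of transforming growth factor beta (TGF-beta) and BMP signalling 14 fell and 8 rose, with a median of -0.35. Smad9, a BMP-responsive signal transducer gene, was at 9.86 and 10.5 CPM in the double mutant, against 35.6 and 36.5 CPM in GLAD (-1.77 ± 0.13). The ligand gene Tgfb3 (-1.42 ± 0.09) and the latent TGF-beta binding protein gene Ltbp2 (-1.60 ± 0.09) fell. Among the other falls were Id1 (-0.59), Id2 (-1.33), Id3 (-1.16), Smad6 (-1.33) and Smad7 (-0.82), all 5 picked from the list after their values were seen. The BMP antagonist gene Grem1 had the largest rise in the list. The ligand gene Bmp2 rose (1.02) while Bmp4 fell (-1.22), both named after their values were seen.

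Genes of receptor tyrosine kinases and growth factors, and immediate-early genes, were mostly higher. In the first list, which also holds feedback genes of these receptors, 17 of 28 rose and 7 fell, with a median of 0.43. Dusp6, a phosphatase gene that ERK signalling induces and whose product switches ERK off, was at 64.8 and 63.4 CPM in the double mutant, against 7.93 and 7.78 CPM in GLAD (2.95 ± 0.12, limma adjusted p = 2.46e-12). The ETS factor gene Etv4 was at 71.1 and 62.5 CPM in the double mutant, against 11.4 and 13 CPM in GLAD (2.41 ± 0.13, limma adjusted p = 1.11e-10), and Etv5 rose by 1.64 ± 0.12. The double mutant libraries of these genes lay above the GLAD libraries without overlap. The Sprouty feedback genes Spry1 (1.44), Spry2 (1.11) and Spry4 (1.26), named after their values were seen, also rose. Hgf, the hepatocyte growth factor gene, was at 1.91 and 2.31 CPM in the double mutant and at 0.0961 and 0.147 CPM in GLAD, where it was below the estimated 3 read limit. Receptor genes fell in several cases, named after their values were seen: Met (-0.73), Ret (-0.75) and Fgfr2 (-0.61), whereas Pdgfra, a receptor gene typical of fibroblasts, was at 336 and 353 CPM in the double mutant, against 144 and 157 CPM in GLAD (1.19 ± 0.09). Of 21 immediate-early genes, the first transcripts made after growth factor signals, 15 rose and 2 fell, with a median of 0.76. Fosl1, an AP-1 subunit gene, was at 86.5 and 89.3 CPM in the double mutant, against 31.4 and 37.3 CPM in GLAD (1.35 ± 0.09). The phosphatase gene Dusp1 (1.47 ± 0.08), the small Maf factor gene Maff (1.49 ± 0.09) and the nuclear receptor gene Nr4a1 (1.23 ± 0.13) rose. The members that fell, named after their values were seen, were Fosl2 (-0.51) and Klf4 (-0.30).

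Of 22 Wnt and Notch signalling genes 8 fell and 2 rose, a called share of 45.5%, beside 35.7% of all genes. Besides Sfrp2, the receptor gene Notch3 was at 33.6 and 37.1 CPM in the double mutant, against 64.4 and 72.9 CPM in GLAD (-0.95 ± 0.11), and its ligand gene Jag1 fell by 0.90 on the log2 scale. Of 18 genes of the insulin-like growth factor axis and imprinted growth genes 8 rose and 4 fell. Igf1 was at 14.3 and 13.1 CPM in the double mutant, against 32.4 and 32.1 CPM in GLAD (-1.20 ± 0.21), and the imprinted Delta-like gene Dlk1 was at 4.56 and 3.81 CPM in the double mutant, against 0.288 and 0.343 CPM in GLAD (2.52 ± 0.21). Of 15 Hox genes 6 fell, none rose, and 3 fell without double mutant library A or without GLAD library B. The distal limb gene Hoxa13 was at 15.3 and 14.8 CPM in the double mutant and 24.5 and 24.2 CPM in GLAD (-0.67 ± 0.14).

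Glycolysis, the conversion of glucose to pyruvate and lactate, is the pathway the series' title names, and its genes were mostly higher in the normoxic double mutant. Of 23 genes 17 rose and 1 fell, with a median of 0.54. The largest rises were the lactate transporters. Slc16a3, which encodes the lactate exporter MCT4, was at 28.9 and 28.1 CPM in the double mutant, against 3.6 and 2.64 CPM in GLAD (3.02 ± 0.15, limma adjusted p = 2.08e-11). Slc16a1, which encodes MCT1, was at 399 and 369 CPM in the double mutant, against 76.3 and 74.3 CPM in GLAD (2.34 ± 0.10, limma adjusted p = 3.01e-12). Pdk1, whose kinase product keeps pyruvate out of the mitochondrial citric acid cycle, was at 108 and 109 CPM in the double mutant, against 38.5 and 38.7 CPM in GLAD (1.48 ± 0.08, limma adjusted p = 1.4e-10). For these 3 genes both double mutant libraries lay well above both GLAD libraries. The fall was Ldhb, the lactate dehydrogenase subunit gene of oxidative tissues, at 1.82 and 1.2 CPM in the double mutant, against 8.31 and 8.51 CPM in GLAD (-2.17 ± 0.24). Named after their values were seen, the hexokinase gene Hk2 (1.41), the glucose transporter gene Slc2a1 (1.08), the phosphofructokinase-2 gene Pfkfb3 (1.22) and Ldha (0.90) rose, while Hk1 (-0.01), Pfkp (-0.04) and Pfkm (0.05) were not called.

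Other targets of the hypoxia-inducible factor (HIF), which is active at low oxygen, were also mostly higher although both groups grew at atmospheric oxygen. Of 22 targets 15 rose and 3 fell, with a median of 0.55. Stc2, a secreted stanniocalcin gene, was at 15.8 and 13.5 CPM in the double mutant, against 3.84 and 3.28 CPM in GLAD (1.90 ± 0.18). Ero1l, an oxidase gene of the endoplasmic reticulum (1.38 ± 0.12), and the mitochondrial adenylate kinase gene Ak4 (1.26 ± 0.11) rose, and the carbonic anhydrase gene Car12 fell, at 13.3 and 12.2 CPM in the double mutant and 37.7 and 34.9 CPM in GLAD (-1.47 ± 0.12). HIF is known to bind the core letters ACGTG. These letters, on either strand, were in 25.6% of all 10922 windows, in 21.6% of those at least 2-fold higher, in 15.6% of those at least 2-fold lower, in 11 of 23 glycolysis windows and in 9 of 17 windows of the other HIF targets. The windows of the 2 lactate transporter genes are shown with the letters in capitals (RefSeq, GRCm38.p6, plus strand). In Slc16a1 (chr3:104638414-104638713) overlapping matches on both strands begin 200 and 199 bases before the start and another lies after it. In Slc16a3 (chr11:120948817-120949116) matches begin 27 and 14 bases before this RefSeq start, which is 587 bases from the GENCODE gene start.

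Slc16a1: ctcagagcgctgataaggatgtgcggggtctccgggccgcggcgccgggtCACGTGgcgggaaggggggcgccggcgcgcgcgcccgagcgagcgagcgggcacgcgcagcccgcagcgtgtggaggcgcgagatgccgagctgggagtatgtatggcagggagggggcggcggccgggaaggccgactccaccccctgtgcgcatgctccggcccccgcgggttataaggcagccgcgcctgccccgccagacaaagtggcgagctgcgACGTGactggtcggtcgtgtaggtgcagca

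Slc16a3: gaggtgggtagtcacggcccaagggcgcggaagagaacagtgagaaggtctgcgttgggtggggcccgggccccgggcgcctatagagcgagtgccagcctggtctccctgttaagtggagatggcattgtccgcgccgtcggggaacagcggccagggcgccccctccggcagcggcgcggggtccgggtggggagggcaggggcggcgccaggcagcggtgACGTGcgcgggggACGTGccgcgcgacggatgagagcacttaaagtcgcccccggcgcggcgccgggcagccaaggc

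Transcripts of the mitochondrial genome were mostly lower, with the limit that nuclear copies of mitochondrial sequence can share their reads. All 12 tested genes had a negative log2 fold change, 8 were called, and the median was -0.69, with 3 called when no filter on low genes was used. Their summed level was 3708 and 3381 CPM in the double mutant, against 5780 and 6047 CPM in GLAD. It also differed widely within other pairs, at 7384 and 4552 CPM in normoxic TIN and 3603 and 2459 CPM in hypoxic GLAD. The 12 genes are thus not independent of a shift of a whole library. The complex I gene mt-Nd5 was at 467 and 429 CPM in the double mutant, against 844 and 939.8 CPM in GLAD (-0.99 ± 0.19, limma adjusted p = 0.000463), and mt-Nd1 was at 454 and 373 CPM in the double mutant, against 741 and 681 CPM in GLAD (-0.79 ± 0.19). Both double mutant libraries were below both GLAD libraries for each gene. Of 34 nuclear genes of oxidative phosphorylation 9 fell and 1 rose, with a median of -0.17; the falls numbered 2 without double mutant library A, 4 without GLAD library A and 18 without either wild-type library. With all libraries 29.4% of these nuclear genes were called, beside 35.7% of all genes. Ndufa4 fell by 0.70 on the log2 scale. Among NRF2 and antioxidant genes 4 of 23 rose and 7 fell, with 4 falls without double mutant library B or without GLAD library B. The epoxide hydrolase gene Ephx1 was at 71.7 and 72.2 CPM in the double mutant, against 237 and 235 CPM in GLAD (-1.71 ± 0.10), while Nfe2l2, which encodes NRF2, rose by 0.65 ± 0.07.

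**Figure D3:**
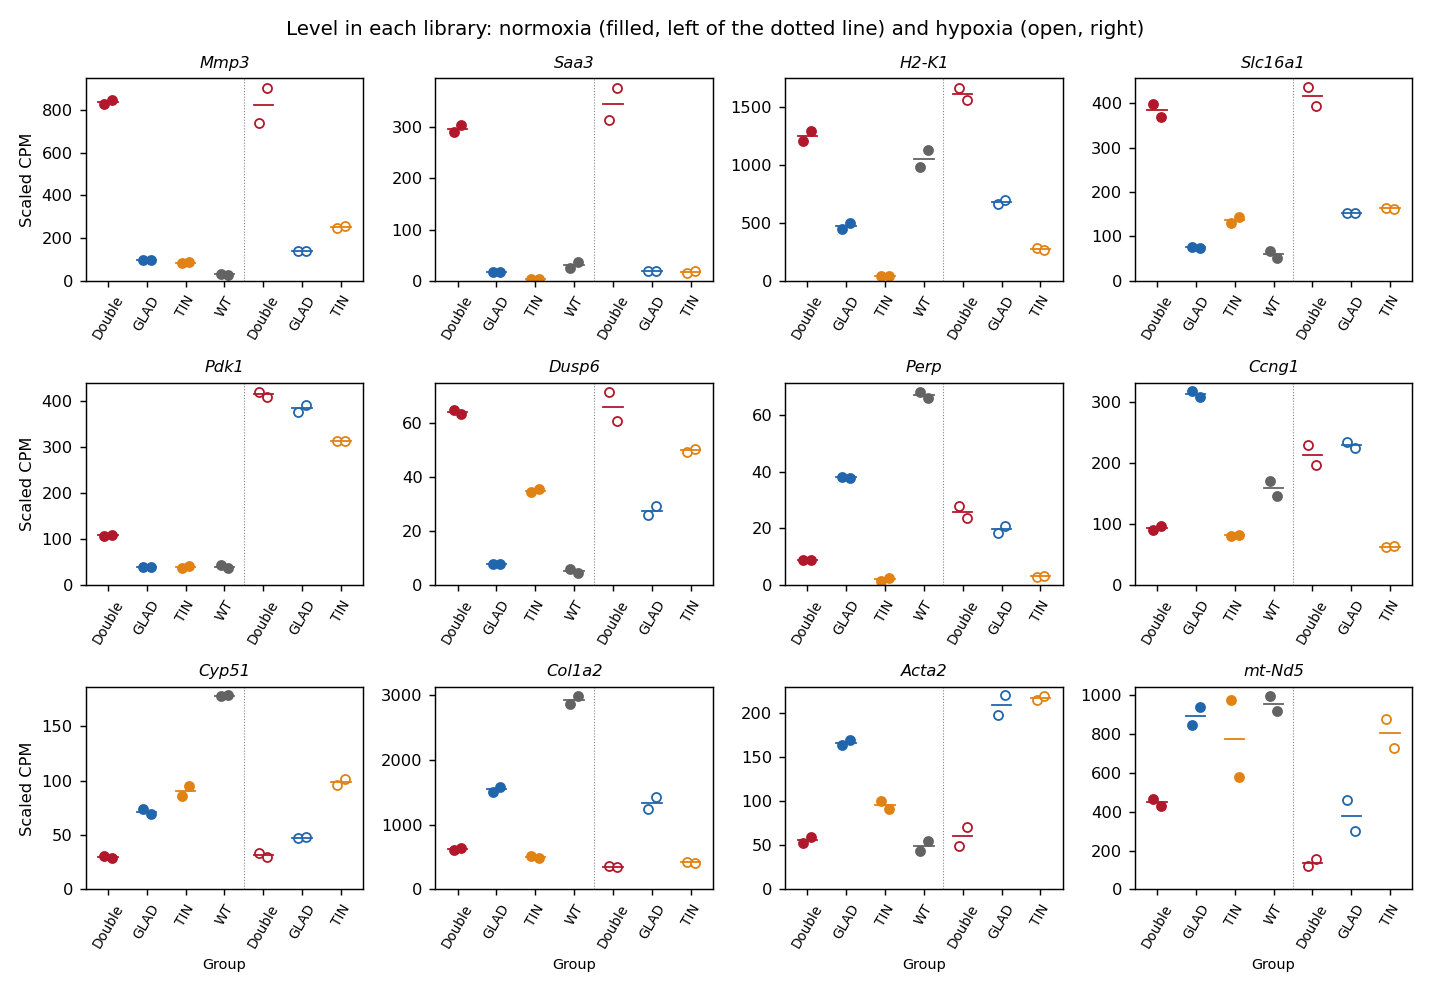
Scaled CPM of 12 genes in each of the 14 libraries (points) with the group mean (bar), normoxia filled and hypoxia open, groups ordered double mutant, GLAD, TIN and wild type. In normoxia Mmp3, Saa3, H2-K1, Slc16a1, Pdk1 and Dusp6 are higher and Perp, Ccng1, Cyp51, Col1a2, Acta2 and mt-Nd5 lower in both double mutant libraries than in both GLAD libraries.

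Most cholesterol synthesis genes were lower. Of 24 tested genes 20 fell and 0 rose, with a median of -0.53. Cyp51, the lanosterol demethylase gene, was at 31.2 and 29 CPM in the double mutant, against 73.9 and 68.9 CPM in GLAD (-1.23 ± 0.08, limma adjusted p = 1.73e-09). The mevalonate pathway genes Mvk (-1.02 ± 0.11) and Mvd (-0.95 ± 0.11) fell as well. Genes of the integrated stress response, which ATF4 drives when translation initiation is restrained, were mostly higher, with 16 of 24 up, 1 down and a median of 0.49. Trib3, a pseudokinase gene, was at 34.5 and 35.3 CPM in the double mutant, against 13.8 and 15.3 CPM in GLAD (1.24 ± 0.12). Cth, which makes cysteine (1.54 ± 0.15), Chac1, which degrades glutathione (1.18 ± 0.17), and Cebpb (1.17 ± 0.12) rose. Chaperone genes of the endoplasmic reticulum, which another stress pathway controls, had 2 rises and 2 falls among 21, with Hspa5 at 0.30 ± 0.07.

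Targets of the tumour suppressor p53 were mostly lower. Of 25 targets 16 fell and 4 rose, with a median of -0.52. Perp, a membrane protein gene of desmosomes and apoptosis, was at 8.88 and 8.93 CPM in the double mutant, against 38.1 and 37.8 CPM in GLAD (-2.03 ± 0.16, limma adjusted p = 1.58e-08). Ccng1, the cyclin G1 gene, was at 90.4 and 96.6 CPM in the double mutant, against 319 and 309 CPM in GLAD (-1.74 ± 0.09, limma adjusted p = 2.08e-11). Trp53inp1 was at 31.5 and 29.9 CPM in the double mutant, against 108 and 100.2 CPM in GLAD (-1.75 ± 0.15, limma adjusted p = 4.38e-08). All 3 genes were several-fold below their GLAD levels in both double mutant libraries. Eda2r, a death receptor gene, fell by 1.85 on the log2 scale. Named after their values were seen, the cell-cycle inhibitor gene Cdkn1a (-1.28), which encodes p21, and the p53 ubiquitin ligase gene Mdm2 (-0.48) fell, and the 4 rises were Gadd45a (0.66), Plk3 (0.55), Ddb2 (0.45) and Trp53 itself (0.25). Of 9 cell-cycle inhibitor and Rb family genes 2 rose, Rbl1 (0.44) and Rbl2 (0.36), and 2 fell, Cdkn1c (-1.48) and Cdkn2b (-0.70). Calls made up 44.4% of that list, beside 35.7% of all genes.

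DNA replication genes were higher by small amounts. Of 41 genes 24 rose and none fell, with a median of 0.33 and no change as large as 2-fold. Mcm10, a replication initiation factor gene, was at 97 and 99.2 CPM in the double mutant, against 50.9 and 55.3 CPM in GLAD (0.88 ± 0.08, limma adjusted p = 6.4e-08). The origin licensing factor gene Cdt1 (0.74 ± 0.08), the helicase subunit gene Mcm3 (0.65 ± 0.08) and the polymerase clamp gene Pcna (0.62 ± 0.07) rose. The letters TTTGGCG, which E2F factors are known to bind, were in 10 of 33 replication gene windows and in 2.55% of all 10922. Of 31 DNA damage and recombination genes 16 rose and none fell, or 9 rose without GLAD library A. H2afx, the histone variant gene whose product is phosphorylated at DNA breaks, was at 131 and 131 CPM in the double mutant, against 67.4 and 76.5 CPM in GLAD (0.87 ± 0.11), and Brca1 rose by 0.72 ± 0.09. Of 9 replication-dependent histone genes 4 rose and none fell (44.4% called), Hist1h1c among them (1.09 ± 0.25), though near-identical histone copies can share reads. Of 35 mitosis genes 11 rose and 3 fell, with a median of 0.03, and 6 rose without double mutant library B or 2 without GLAD library A. The proliferation marker gene Mki67 was at 469 and 653 CPM in the double mutant, against 409.8 and 418 CPM in GLAD (0.42 ± 0.11), and the mitotic activator gene Cdc20 fell by 0.37 on the log2 scale. Of 44 cytosolic ribosomal protein genes 16 rose and none fell, with a median of 0.18; the rises numbered 10 and 4 without double mutant library A and B, and 7 and 9 without GLAD library A and B.

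Shelterin and telomere genes differed by less than 2-fold. Of the 7 shelterin genes 3 rose and none fell, a called share of 42.9%, beside 35.7% of all genes. Terf2, which encodes the second telomere-binding protein TRF2, was at 58.1 and 57 CPM in the double mutant, against 40.2 and 42.2 CPM in GLAD (0.48 ± 0.09, limma adjusted p = 0.000354). Tinf2, which encodes TIN2, was at 43.4 and 39.4 CPM in the double mutant, against 30.6 and 30.7 CPM in GLAD (0.43 ± 0.10, limma adjusted p = 0.00175). Acd, which encodes TPP1, was at 90.2 and 91.7 CPM in the double mutant, against 66.3 and 71.9 CPM in GLAD (0.40 ± 0.09, limma adjusted p = 0.00266). For all 3 the double mutant libraries lay above the GLAD libraries by less than 2-fold. Pot1a, Pot1b, Terf2ip and Terf1 were not called. Of 21 genes of telomerase and telomere replication 7 rose and 1 fell, a called share of 38.1%, close to the 35.7% of all genes. The number of rises moved between 2 without double mutant library A, 3 without any one of double mutant library B or the GLAD libraries, and 13 without either wild-type library. The helicase gene Pif1 was the fall, at 18.2 and 16.7 CPM in the double mutant, against 29.3 and 27.3 CPM in GLAD (-0.68 ± 0.13). Blm, a helicase gene (0.38 ± 0.09), and Smchd1, a chromatin protein gene (0.40 ± 0.09), rose. Tert and Terc, the catalytic subunit and RNA template of telomerase, were below the filter.

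The same contrast at 1% oxygen rests on 4 other libraries, although all 14 share the estimate of the spread. There 6896 genes were called (42.7%), 3600 higher (22.3%) and 3296 lower (20.4%). Of the 3058 genes higher in normoxia, 1762 were also called higher in hypoxia, 57.6% of the normoxic and 48.9% of the hypoxic calls, and 88 were called lower. Of the 2702 genes lower in normoxia, 1607 were also called lower in hypoxia, 59.5% of the normoxic and 48.8% of the hypoxic calls, and 143 were called higher. All 30 of the most changed genes were called in the same direction at both oxygen levels. Across the 16157 genes the log2 fold changes at normoxia and hypoxia correlated at a Pearson r of 0.636, a description across genes, which are not independent replicates. A test of the difference between the 2 oxygen levels (interaction term in limma) called 2356 genes (14.6%), 1124 positive (6.96%) and 1232 negative (7.63%). This count was 1433 to 1555 when any 1 of the 4 normoxic libraries, hypoxic double mutant library A or either hypoxic GLAD library was left out, and 3590 and 3592 without wild-type library A and B.

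**Figure D4:**
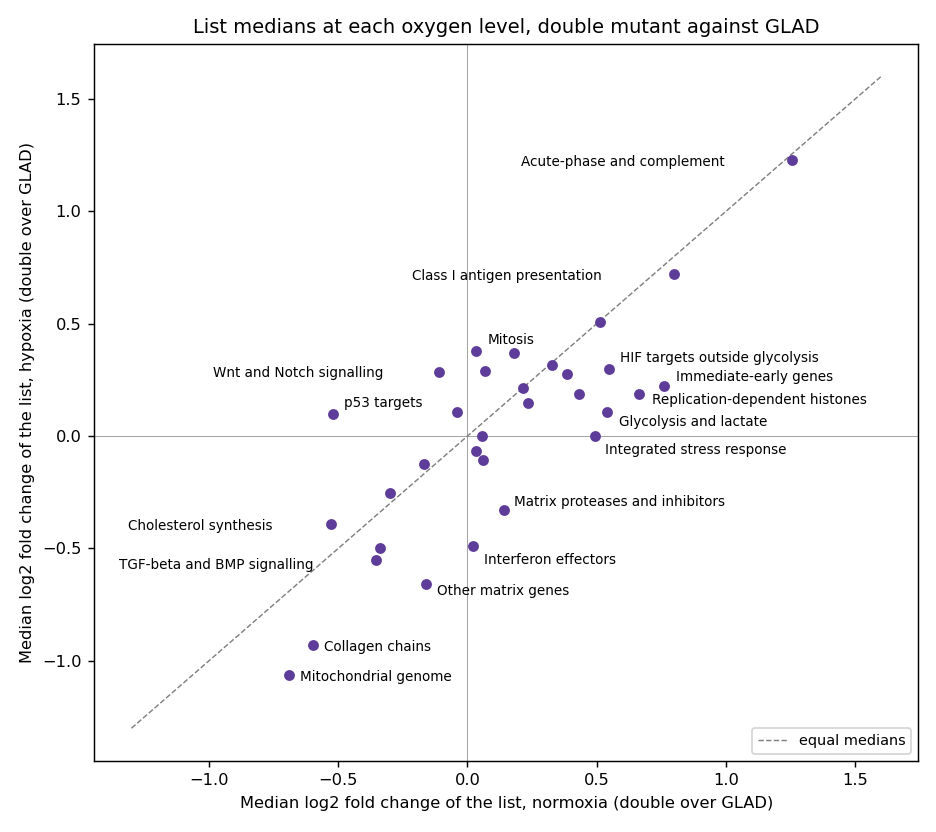
Median log2 fold change (double mutant over GLAD) of each gene list at hypoxia (vertical axis) against normoxia (horizontal axis), one point per list, with the line of equal medians dashed. Acute-phase genes lie on the line (1.25 at normoxia and 1.23 at hypoxia), and p53 targets (-0.52 and 0.10) and interferon effectors (0.02 and -0.49) lie away from it.

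The p53 targets differed between the oxygen levels: the interaction was called and positive for 16 of 25 and called and negative for 2, and in hypoxia 8 were higher and 4 lower in the double mutant. Ccng1 stood at 229 and 196 CPM in the hypoxic double mutant libraries, against 234 and 224 CPM in the hypoxic GLAD libraries (log2 fold change -0.11, interaction 1.63, limma adjusted p = 1.45e-07). Perp stood at 27.9 and 23.5 CPM in the hypoxic double mutant, against 18.5 and 20.9 CPM in hypoxic GLAD (log2 fold change 0.37, interaction 2.40, limma adjusted p = 2.1e-06). At 1% oxygen the double mutant and GLAD libraries of both genes were thus much closer than at atmospheric oxygen. Glycolysis genes had a median of 0.11 in hypoxia against 0.54 in normoxia, with a called negative interaction for 15 of 23. Pdk1 stood at 419.7 and 408 CPM in the hypoxic double mutant, against 376 and 391 CPM in hypoxic GLAD (interaction -1.37, limma adjusted p = 7.19e-07), and both groups were far above their normoxic levels. A negative interaction was also called for 9 of 22 other HIF targets, 14 of 24 integrated stress response genes, 12 of 21 immediate-early genes and 26 of 33 interferon effectors. Of the 33 interferon effectors 25 were lower in the double mutant in hypoxia, Oas3 among them at 12.6 and 12.2 CPM in the hypoxic double mutant and 23.6 and 24.1 CPM in hypoxic GLAD. Mitosis genes had a called positive interaction for 16 of 35 and Wnt and Notch genes for 10 of 22. Class I antigen presentation had 4 called interactions among 15 genes, all negative. Acute-phase genes had 1 in each direction among 13, DNA replication genes 1 in each direction among 41, and shelterin none among 7, where 14.6% of all genes had a called interaction.

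The TIN substitution alone can be set beside this as TIN against wild type, a comparison with no library in common. It had 9736 calls (60.3%). The wild-type columns carry the word mouse in their names while their labels give naked mole rat TRF1, so this comparison rests on the labels. Of the genes higher in the double mutant than in GLAD, 1281 (41.9%) were higher in TIN than in wild type, which is 25.3% of the genes higher in TIN, and 843 were lower. Of the genes lower in the double mutant, 1123 (41.6%) were lower in TIN, which is 24.1% of the genes lower in TIN, and 691 were higher. Over all genes, 31.4% were higher and 28.9% lower in TIN. Class I genes ran the other way, with 0 of 15 higher and 15 lower in TIN than in wild type, and H2-K1 stood at 37.3 and 41.8 CPM in the TIN libraries, against 980.4 and 1129 CPM in the wild-type libraries. Saa3 stood at 2.99 and 4.08 CPM in the TIN libraries, against 24.9 and 37.3 CPM in the wild-type libraries, also opposite to the rise described above. Replication genes ran the same way, with 24 of 41 higher in TIN than in wild type and 2 lower, and so did Gpr149, at 42.1 and 46.7 CPM in the TIN libraries and listed at 0 in both wild-type libraries. The p53 targets had 16 of 25 lower and 3 higher in TIN. A test of whether the 2 differences are equal called 8021 genes (49.6%), among them 27 of the 30 most changed genes. Those 30 were chosen for a large value of the first difference, so their share cannot be read against the share over all genes.

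Fold changes also differed between chromosomes. Of the 1251 tested genes on chromosome 2, 42.4% rose and 6.55% fell, with a median of 0.26 (log2). Chromosomes 17 (755 genes, median 0.22) and 8 (870 genes, median 0.19) were also shifted up. Chromosomes 18 (407 genes, median -0.22), 5 (1106 genes, median -0.19), 13 (631 genes, median -0.15) and 4 (984 genes, median -0.14) were shifted down. The hypoxia libraries, which are separate, gave medians of 0.27 for chromosome 2, 0.22 for chromosome 17 and 0.19 for chromosome 8, and -0.22, -0.17, -0.15 and -0.12 for chromosomes 18, 5, 13 and 4 in that order. With each chromosome's median removed in every library, an alternative chosen after seeing the data, 4927 genes were called, 4207 of them among the 5760, and each of the 30 most changed genes was still called. Lcn2 and Grem1 lie on chromosome 2, Hp, Hhip and Tcim on chromosome 8 and the class I heavy chain genes on chromosome 17. Of the most changed genes that fell, Klhdc7a, Epha7 and Tek lie on chromosome 4 and Aspn on chromosome 13. Against their chromosome's shift, Sdk1 and Plac8 on chromosome 5 and Angptl7 on chromosome 4 rose. The part of the chromosome shifts in the gene results was not tested beyond this alternative, and with it the class I median was 0.56 and the p53 target median -0.49.

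**Figure D5:**
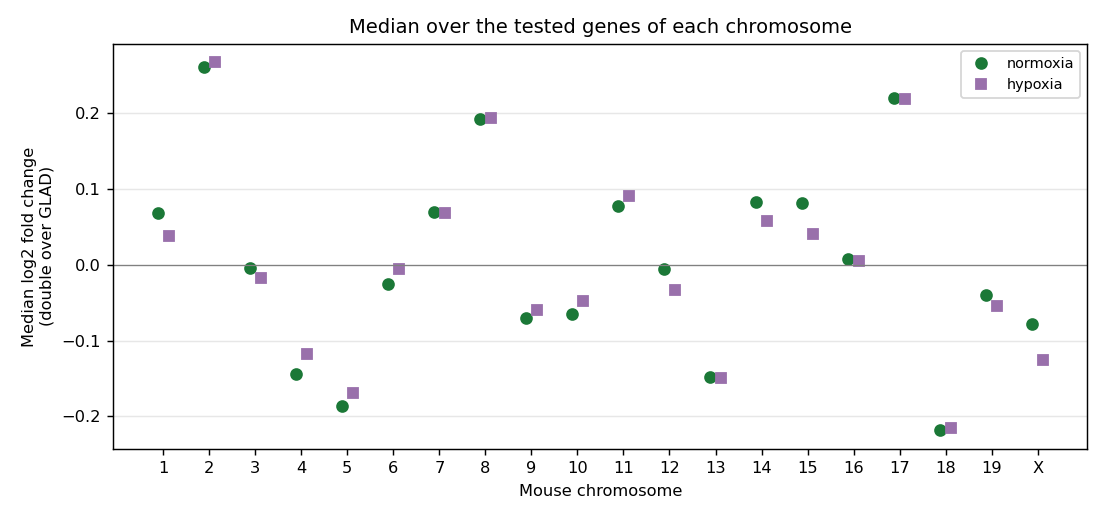
Median log2 fold change (double mutant over GLAD) of the tested genes on each autosome and chromosome X (horizontal axis), at normoxia (circles) and at hypoxia (squares). Chromosome 2 is highest (0.26 and 0.27) and chromosome 18 lowest (-0.22 and -0.22) at both oxygen levels.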

How the data were processed

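RNA from 14 libraries was sequenced, and the deposited table gives 1 value per gene and library in CPM (reads of a gene per 1e6 counted reads), made by the authors. Per the submitters' processing notes, STAR, HTSeq, GRCm38.p4 and mm10 were used; versions, annotation and strand setting are not given in the sources used here. Gene positions are from the GENCODE annotation of GRCm38. Depth was estimated from the smallest steps between CPM values, and limits from it cover counting error only.

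CPM values were scaled by trimmed means of M values, and a gene was tested if 2 or more libraries reached 1 CPM. log2(scaled CPM + 0.5) was fitted with limma 3.58.1 in R 4.3.3 with 7 group means over all 14 libraries, a variance trend and Benjamini-Hochberg adjustment over all genes, with calls at adjusted p under 0.05. The fit was tested on simulated data. Count tests were planned as alternatives, but the unit is CPM and they were not run.

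Named genes are the 15 largest rises and 15 largest falls among called genes with a mean of at least 5 CPM and no overlap between the groups, up to 4 called members with the largest change of each list, and Terf1. Genes outside this rule, Vim included, were chosen after their values were seen. The comparison and the gene lists were chosen with earlier results of these data known. The main fit did not pair the libraries by the letters A and B. Correlations of their deviations from the group means between groups ran from -0.096 to 0.161. Such values cannot show whether A and B were handled as matched sets. Promoter windows run from 250 bases before to 50 after the RefSeq start and were matched by symbol or identifier for 10922 of 16157 genes. Some genes are not reported here.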

Additional observations from a re-analysis of the deposited data

Results flagged for a closer look

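The difference between double mutant and GLAD was itself different at 1% and at atmospheric oxygen for 2356 genes by the interaction term in limma. Values below are the log2 fold change at hypoxia minus that at normoxia. Among the 30 most changed genes, 17 were called, all toward a smaller difference in hypoxia. These 30 were chosen by their normoxic difference, which this value subtracts, so the choice itself favours that direction. Over all genes the calls were 1124 positive and 1232 negative. For genes higher in the double mutant the rise was smaller in hypoxia for Adcy8 (-2.18), Hhip (-2.15), Tcim (-2.0), Angptl7 (-1.84), Gpr149 (-1.72), Etv1 (-1.44), Nos2 (-1.44), Grem1 (-1.32), Gpnmb (-0.90) and Lcn2 (-0.56). For genes lower in the double mutant the fall was smaller in hypoxia for Klhdc7a (2.54), Npr3 (2.24), Kctd12 (1.70), Gm26778 (1.67), Tek (1.29), Ddit4l (1.07) and Epha7 (0.78). Named genes called in opposite directions at the 2 oxygen levels were the cartilage collagen gene Col2a1 (2.58), Notch3 (1.53), Cdc20 (0.78) and Oas3 (-1.53).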

How the results depend on the processing

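The normoxic count of 5760 calls was 5583 with a pseudocount of 0.1 CPM, 5847 with 2 CPM, 4994 with no filter, 5200 with a 5 CPM filter, 5772 with median-of-ratios scaling, 5207 with no variance trend and 6740 with length and GC content removed. Without scaling it was 5786, with 47.6% of calls higher in place of 53.1%. It was 7488 with only the 4 libraries and 7181 without wild type. At adjusted p under 0.01 it was 3843, with 2025 higher, and the interaction had 1161 calls, 576 positive and 585 negative. The interaction had 3600 calls without wild type, 1757 of them positive, and 813 negative calls with no filter. With A and B as a replicate block the normoxic count was 5899.

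Leaving out 1 library at a time gave 3809 to 7179 calls in normoxia (1825 to 3822 higher, 1924 to 3357 lower), 5008 to 8158 in hypoxia (2612 to 4298 higher, 2396 to 3861 lower) and 1433 to 3592 for the interaction (682 to 1756 positive, 628 to 1836 negative). TIN against wild type had 8256 to 10055 calls (4283 to 5125 higher, 3973 to 4988 lower) and non-additivity 6837 to 8962 (3388 to 4490 positive, 3400 to 4472 negative). The cause of these shifts was not tested. None of the 175 genes named by the rule changed sign under any alternative run. Genes chosen after their values were seen were not followed there. Each of the 30 most changed genes kept its call in all 27, with a highest adjusted p of 0.000115 in limma. Hist1h4i lost its call in 12 alternatives. DESeq2 and edgeR were not run. With 2 libraries a group, small changes of low genes are poorly resolved.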
